A study of Homo sapiens with 22 samples.

Results

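Glycolysis and hypoxia response genes were followed across RPTEC, a human renal proximal tubule epithelial line immortalized with hTERT, in which the histone methyltransferase SETD2 had been knocked out, put back, or left intact. The genes were chosen by name from a list of 39, which held the subunits of the hypoxia-inducible factors (HIF), the glycolytic enzymes and their regulators, glucose transporters, carbonic anhydrases, prolyl hydroxylases and other HIF targets. Of the 36859 genes of the table, 38 were these members, and the expression of EGLN1 was not analysed here. RNA-seq covered 11 groups of 2 libraries. WT, WT given TGF-β at 10 ng/ml for 72 h, the clones KO1 and KO2, and a group labelled KO2 rescue were kept in 2% serum. The clones Rescue1 and Rescue2, in which KO cells carry lentiviral SETD2 under blasticidin, were grown in 10% serum. So were 4 transduced WT lines under puromycin (eGFP, SOX2, OCT2 and PRRX1, with eGFP as the empty vector). The clone from which each rescue line was made is not given in the sources used here. Each KO and rescue line is 1 clone derived from a single cell, and both KO clones come from the same guide to exon 3. All cells carry hTERT under G418, and nothing in the labels says that the 2 libraries of a group came from separate cultures, so p-values measure only the spread between these libraries.

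HIF is a pair of proteins, an oxygen-labile alpha subunit and the stable partner ARNT. With oxygen present, prolyl hydroxylases mark the alpha subunit for capture by VHL and destruction, and when oxygen is short the pair binds genes for glucose uptake, glycolysis, pH control and survival. VHL is lost in most clear cell renal carcinomas, so HIF targets are well studied in proximal tubule cells. HIF is controlled largely through the stability of its alpha protein, which RNA-seq does not measure.

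SETD2 mRNA was read first, as a check of the labels. It was 1852 and 2061 normalized counts in WT, 1046 and 1130 in KO1, 1050 and 1052 in KO2, and 9764 to 10445 in the rescue clones. In the group labelled KO2 rescue it was 834 and 820, below KO2 itself, so these libraries go against their label and are called the labelled KO2 rescue throughout. Libraries held about 7700000 to 19000000 reads, and duplicates differed by a median absolute log2 of 0.064 to 0.181 over genes with at least 1000 normalized counts. That difference was highest in WT, the control of the KO and TGF-β comparisons. KO1 replicate 2 had reads in the fewest genes, 14082, where the other libraries had 14709 to 16115. Of 15 renal markers, PAX8, PAX2, KRT8 and EPCAM and the proximal tubule genes CUBN, ANPEP and GGT1 exceeded 3 normalized counts in all 22 libraries, while LRP2 and HNF4A exceeded it in none and SLC34A1 in 8. The epithelial markers EPCAM and KRT8 averaged 2907 and 16033 in WT, 257 and 4255 in KO1 and 869 and 10159 in KO2. Other renal markers went the other way. PAX8 averaged 3032 in WT, 6472 in KO1 and 5076 in KO2. CUBN averaged 24.2, 243 and 169 in these groups and ANPEP 29.1, 280 and 173. The endothelial markers PECAM1, VWF and CDH5 reached at most 25.1, 26.3 and 83.8 and the leukocyte marker PTPRC 20.1. CD68, also on the leukocyte list, reached 364 and averaged 127 in WT, 287 in KO1 and 167 in KO2. In Rescue1 and Rescue2 it averaged 19.5 and 0.4. The summed level of 6 fibroblast markers, chiefly DCN and COL1A1, moved with the groups. It was 827 and 12436 in WT, 46361 to 47799 with TGF-β, 223362 to 236445 in KO1, 98934 to 102547 in KO2 and 811 to 1524 in the rescue clones. In the KO clones the sum was nearly all DCN, which averaged 383 in WT, 228208 in KO1 and 96676 in KO2. COL1A1 averaged 928 (KO1) and 3636 (KO2) in the clones and 6226 in WT, and TGF-β libraries averaged 45802. COL3A1 stayed at or below 22.8. LUM averaged 4.3 in WT, 563.5 in KO1 and 352.3 in KO2, PDGFRA 5.3, 185.2 and 62.5, and PDGFRB 8.1, 19.0 and 13.0. The part of these differences in the results below was not tested.

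A member was called when limma gave an adjusted p under 0.05 with a log2 change beyond 1 in either direction, and 35 members passed the filter on low values. CA9, HIF3A and ALDOC did not. CA9, a carbonic anhydrase widely used as a mark of HIF activity, was at 4.45 normalized counts or less in all 22 libraries. HIF3A reached 77.6 in KO1 replicate 2 alone and was at 0 in KO1 replicate 1. ALDOC, the brain aldolase, was at 9.66 or less.

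KO1, KO2, TGF-β and eGFP were all set against the same 2 WT libraries, so each comparison is given with its own values. In KO1, 10 of the 35 tested members were higher than in WT (28.6%, against 12.0% of all genes tested) and 0 were lower (13.1% of all genes). At an unadjusted p in limma under 0.05, without the fold threshold, 23 of the 35 differed in either direction, against 47.3% of all genes. In KO2, 5 were higher (14.3%, against 9.02%) and 4 were lower (11.4%, against 7.29%). The median log2 change of the tested members was 0.80 in KO1 and 0.16 in KO2, and that of all genes was 0.00 in both. CA12, ADM, DDIT4, PFKFB4 and PGAM1 rose in both clones. With equal library totals as the scaling, the median of all genes moved to −0.39 in KO1 and −0.20 in KO2, and the counts became 9 higher and 4 lower in KO1 and 5 higher and 7 lower in KO2. Shares of all genes called under that scaling are not given here, so these counts were not set against them. Within that scaling the 4 members called lower in KO1 were PFKP, TPI1, ENO1 and EGLN3.

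**Figure D1:**
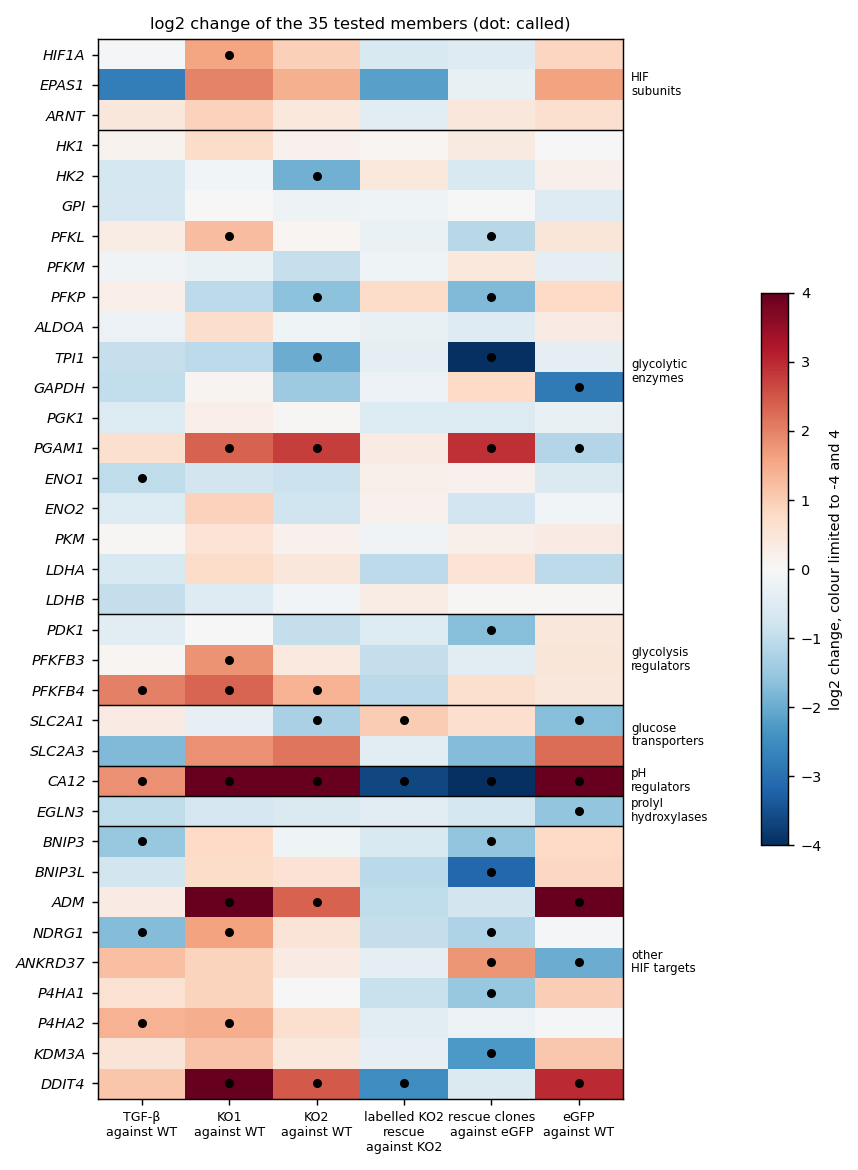
Log2 change of the 35 tested members (rows, by role) in 6 comparisons (columns), from blue for lower to red for higher, with colours limited to −4 and 4. A dot marks a called member. KO1 has 10 dots, all higher, and the rescue clones against eGFP have 12, of which 10 are lower.

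Of the regulators of pH, CA12, a membrane carbonic anhydrase that hydrates CO2 outside the cell, changed most. It was at 18.9 and 9.06 normalized counts in WT, 8084 and 8348 in KO1 and 814 and 569 in KO2. The libraries of the 3 groups did not overlap. Its log2 change was 9.18 ± 0.31 (SE) in KO1, 581-fold on the log2(count + 1) scale, and 5.59 ± 0.31 in KO2, 48.2-fold, with adjusted p of 8.3e-12 and 4.5e-09. Leaving out each library in turn gave 8.69 to 9.67 in KO1 and 5.10 to 6.08 in KO2. CA12 lies on chromosome 15, from 63321378 to 63381846 on the minus strand of GRCh38.

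Among other HIF targets, ADM, which encodes the vasodilator peptide adrenomedullin, was at 9.40 and 11.2 normalized counts in WT, 272 and 436 in KO1 and 73.2 and 44.8 in KO2. DDIT4, an inhibitor of mTORC1, was at 3.82 and 12.5 in WT, 132 and 175 in KO1 and 40.0 and 46.2 in KO2. Both genes were low in WT and highest in KO1. The log2 change of ADM was 4.94 ± 0.57 in KO1 and 2.37 ± 0.57 in KO2 (adjusted p = 6.3e-06 and 0.00547), and that of DDIT4 was 4.24 ± 0.72 and 2.45 ± 0.72 (0.00025 and 0.0189). In KO2 the call of DDIT4 was lost without WT replicate 1, at 1.70, and without either KO2 library, and that of ADM without KO2 replicate 1, at 2.02.

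NDRG1, a stress-induced gene that HIF raises in many cells, was at 1931 and 2428 normalized counts in WT, 7130 and 6134 in KO1 and 3601 and 2680 in KO2. It rose in KO1, by 1.61 ± 0.17 on the log2 scale (adjusted p = 2.2e-06), and its change of 0.52 in KO2 was below the threshold. P4HA2, a subunit of the enzyme that hydroxylates collagen prolines, was at 4061 and 2425 in WT, 8103 and 9004 in KO1 and 5058 and 4754 in KO2. It rose in KO1 by 1.44 ± 0.15 (adjusted p = 2.5e-06). Its relative P4HA1 had log2 changes of 0.90 in KO1 and 0.02 in KO2. BNIP3 and BNIP3L, which direct mitochondria to autophagy, were not called in either clone. BNIP3 was at 2175 and 2314 in WT, 4088 and 3720 in KO1 and 1878 and 2088 in KO2, so its duplicates stood close and KO1 alone was apart, with a log2 change of 0.80 that passed the adjusted p (1.7e-06) and not the fold. KDM3A, a histone demethylase, and ANKRD37 were not called in the KO clones either.

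The sequences before the starts of CA12, ADM and DDIT4, HIF targets that rose in both clones, and of BNIP3, discussed with the rescue clones, are shown because they can hold the core of the hypoxia response element to which HIF binds. The cores searched were ACGTG and GCGTG on both strands (on the printed strand also CACGT and CACGC, and ACGTG overlaps CACGT where both lie in CACGTG). Windows were those of RefSeq on GRCh38.p14, from 250 bases before to 50 bases after a start, and 36 of the 39 members matched, with 62 windows; BNIP3L, NDRG1 and SLC2A3 did not. Each line gives the bases from 250 to 46 before the start, 5′ to 3′ on the gene's strand, with the cores in capitals.
CA12 (chr15:63381892-63382096, minus strand): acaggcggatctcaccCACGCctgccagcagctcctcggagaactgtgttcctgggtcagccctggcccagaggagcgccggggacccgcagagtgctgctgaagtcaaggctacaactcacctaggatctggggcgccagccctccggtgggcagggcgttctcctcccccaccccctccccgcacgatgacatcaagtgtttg
ADM (chr11:10304823-10305027, plus strand): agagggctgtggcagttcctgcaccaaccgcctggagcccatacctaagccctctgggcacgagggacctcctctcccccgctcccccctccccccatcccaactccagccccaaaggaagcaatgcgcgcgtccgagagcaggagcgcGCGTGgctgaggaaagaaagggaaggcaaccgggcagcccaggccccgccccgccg
DDIT4 (chr10:72273674-72273878, plus strand): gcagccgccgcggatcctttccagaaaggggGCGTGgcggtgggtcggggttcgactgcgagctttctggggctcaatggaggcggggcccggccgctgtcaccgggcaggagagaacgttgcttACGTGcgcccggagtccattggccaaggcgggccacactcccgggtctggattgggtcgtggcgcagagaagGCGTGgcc
BNIP3 (chr10:131981969-131982173, minus strand): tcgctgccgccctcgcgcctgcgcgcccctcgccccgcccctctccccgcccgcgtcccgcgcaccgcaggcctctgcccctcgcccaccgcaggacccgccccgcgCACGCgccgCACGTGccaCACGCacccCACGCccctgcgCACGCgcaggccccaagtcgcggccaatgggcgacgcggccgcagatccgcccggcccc
Counting overlaps, the printed stretch held 1 core for CA12, 1 for ADM, 3 for DDIT4 and 6 for BNIP3. Over whole windows, 41 of the 62 member windows (66.1%) and 17012 of all 35116 windows (48.4%) held at least 1 core. A match is a description of letters and was not set against any binding data.

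HIF1A, which encodes the alpha subunit HIF-1α, was at 2812 and 2288 normalized counts in WT, 7201 and 7868 in KO1 and 4666 and 5274 in KO2. All 4 KO libraries were above both WT libraries, as they were in 21.4% of all genes tested. The log2 change was 1.57 ± 0.12 in KO1 (2.97-fold, adjusted p = 8.9e-08), which was called, and 0.97 ± 0.12 in KO2 (adjusted p = 2.4e-05), which passed the p and fell short of the fold threshold. ARNT, at 159 and 368 in WT, had changes of 0.92 and 0.42 and was not called. EPAS1, which encodes HIF-2α, was at 14.1 and 7.59 in WT, 9.40 and 197 in KO1 and 35.6 and 23.9 in KO2, and its duplicates differed by over 2-fold on the log2(count + 1) scale in 8 of the 11 groups, so no change of it can be read. EGLN3, a prolyl hydroxylase that is itself a HIF target, was at 360 and 294 in WT, 166 and 252 in KO1 and 193 and 249 in KO2. Its changes of −0.67 and −0.57 were not called. Fewer cells with a transcript and less transcript per cell cannot be told apart in these bulk libraries.

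Of the regulators of glycolysis, PFKFB3 and PFKFB4 make fructose 2,6-bisphosphate, the main activator of phosphofructokinase. PFKFB3 was at 1503 and 1372 normalized counts in WT, 5640 and 4507 in KO1 and 2067 and 1751 in KO2, and rose in KO1 by 1.81 ± 0.20 on the log2 scale (adjusted p = 4.2e-06). In KO2 its change was 0.41. PFKFB4 was at 89.8 and 31.9 in WT, 257 and 295 in KO1 and 152 and 131 in KO2. It rose by 2.34 ± 0.40 in KO1 and 1.38 ± 0.40 in KO2 (adjusted p = 0.00024 and 0.0161). The WT libraries of PFKFB4 differed by over 2-fold, and the KO2 call was lost without WT replicate 2, at 0.64, and without KO2 replicate 1, at 1.27. PDK1, the kinase that closes pyruvate dehydrogenase, was at 698 and 739 in WT, 804 and 651 in KO1 and 315 and 431 in KO2. It was not called in either clone, with changes of 0.01 and −0.96.

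**Figure D2:**
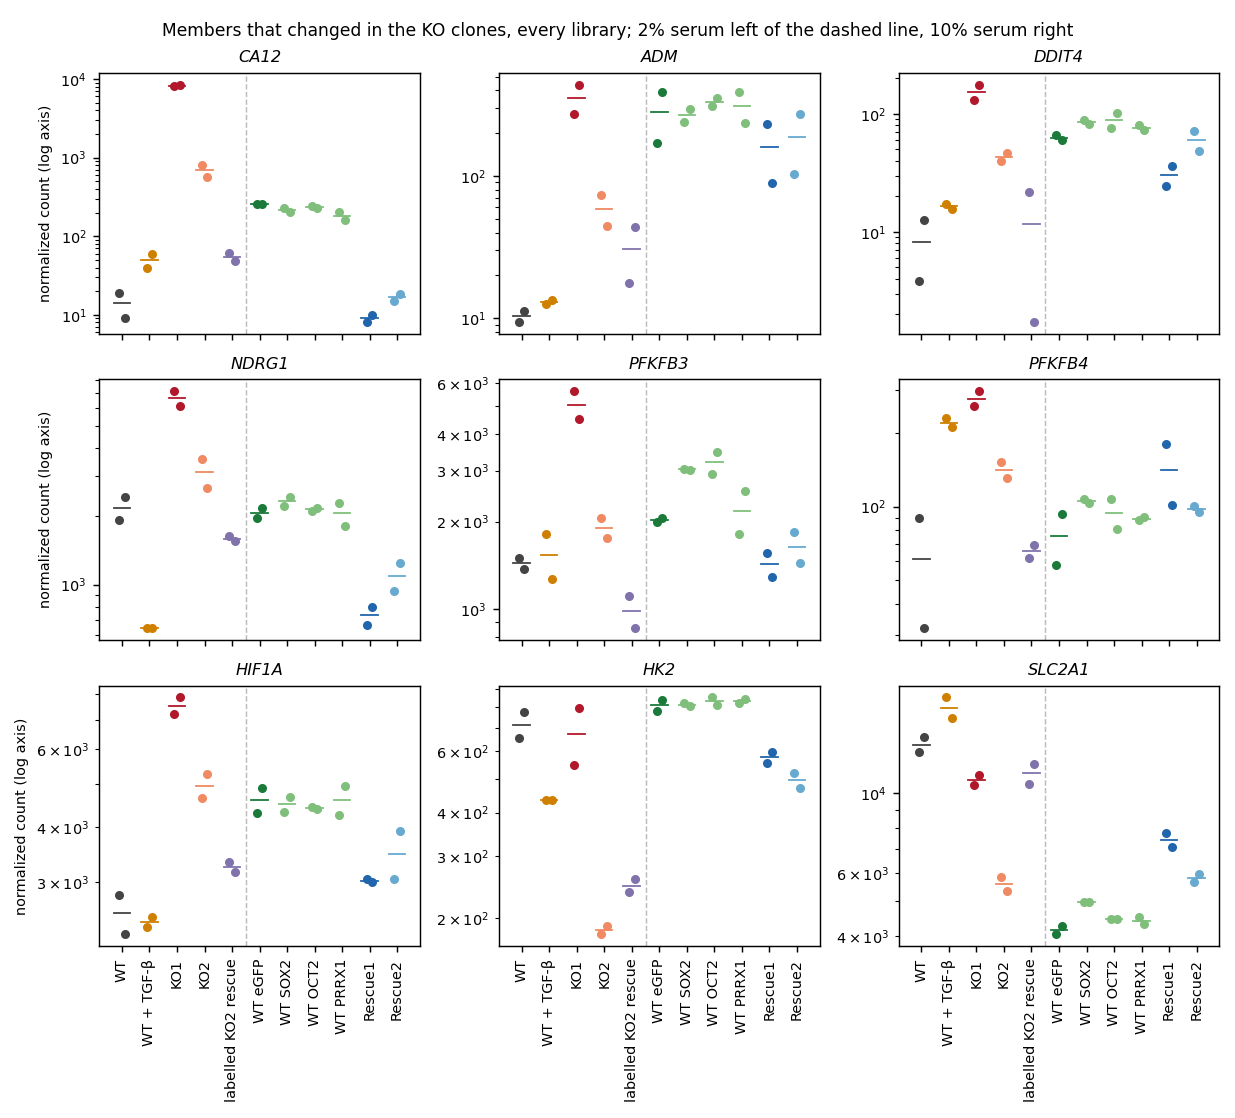
Normalized counts on a log axis of 9 members in every library (dots) of the 11 groups, with a line at the mean of the 2 libraries of a group. CA12 spans 8.15 to 8348 normalized counts, KO1 lies highest in CA12, NDRG1, PFKFB3 and HIF1A, and HK2 is lowest in KO2.

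Of the 16 glycolytic enzymes tested, PFKL and PGAM1 rose in KO1, and in KO2 PGAM1 rose and HK2, PFKP and TPI1 fell. Of all genes tested, 12.0% rose and 13.1% fell in KO1, and 9.02% rose and 7.29% fell in KO2. HK2, the inducible hexokinase bound to mitochondria, was at 652 and 773 normalized counts in WT, 546 and 796 in KO1 and 180 and 190 in KO2. The KO1 libraries lay below and above the WT range, and the KO2 libraries were below all others of the series. The log2 change was −0.11 in KO1 and −1.94 ± 0.14 in KO2 (adjusted p = 1.1e-07). TPI1, triosephosphate isomerase, was at 1307 and 1192 in WT, 580 and 633 in KO1 and 351 and 277 in KO2, and fell by 2.00 on the log2 scale (SE 0.46) in KO2 (adjusted p = 0.0039). PFKP, the platelet phosphofructokinase, was at 445 and 319 in WT, 192 and 172 in KO1 and 101 and 141 in KO2. Its call in KO2 (−1.65 ± 0.52, adjusted p = 0.0256) was lost without WT replicate 1 and without either KO2 library. PFKL, the liver form, was at 148 and 158 in WT, 287 and 460 in KO1 and 144 and 180 in KO2, and its call in KO1 (1.24 ± 0.38, adjusted p = 0.0173) was lost without either WT library, at 1.19 and 1.29, and without KO1 replicate 2, at 0.90. PGAM1, phosphoglycerate mutase, was at 43.8 and 26.6 in WT, 154 and 209 in KO1 and 263 and 219 in KO2, and rose by 2.36 ± 0.39 and 2.78 ± 0.39 (adjusted p = 0.0002 and 6.6e-05).

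ENO1, LDHA, LDHB and PGK1, the most abundant enzyme rows, did not pass the fold threshold in either clone. ENO1, enolase 1, was at 62606 and 76469 normalized counts in WT, 43519 and 38948 in KO1 and 38747 and 37449 in KO2, with log2 changes of −0.75 and −0.86. LDHB, the lactate dehydrogenase subunit typical of oxidative tissue, was at 13627 and 13254 in WT, 9878 and 8866 in KO1 and 12056 and 13016 in KO2. LDHA, the subunit typical of glycolytic tissue and a HIF target, was at 34648 and 9786 in WT, 19855 and 47956 in KO1 and 26611 and 23883 in KO2, so the spread within WT and within KO1 covers the other groups. PGK1, phosphoglycerate kinase, was at 11438 and 11696 in WT, 14181 and 13547 in KO1 and 11983 and 11668 in KO2. Its changes were 0.26 and 0.03. HK1, GPI, PFKM, ALDOA, GAPDH, ENO2 and PKM were not called in either clone, with log2 changes from −1.47 (GAPDH in KO2) to 0.93 (ENO2 in KO1). In ENO1, LDHB and PFKM all 4 KO libraries were below both WT libraries, as they were in 21.6% of all genes tested. In HK1 and PKM all 4 were above both, as in 21.4% of all genes.

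SLC2A1, the basal glucose transporter GLUT1, was at 13028 and 14335 normalized counts in WT, 10589 and 11235 in KO1 and 5838 and 5338 in KO2. All KO libraries were below WT, as they were in 21.6% of all genes tested, and KO2 was lowest of the 3 groups. It fell by 1.29 on the log2 scale (SE 0.08, adjusted p = 1.4e-08) in KO2 and its change was −0.33 in KO1. SLC2A3, the neuronal transporter GLUT3, was low, at 2.23 to 74.4 in the whole series, and its changes of 1.82 and 2.14 were not called.

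KO1 and KO2 were set against each other to see which members differ between clones made with the same guide, whose SETD2 mutations are not the same. Of 35 members, 6 were higher in KO1 (17.1%, against 2.48% of all genes tested) and 0 were lower (4.49% of all genes). In limma 22 of the 35 had an unadjusted p under 0.05 in either direction, against 29.4% of all genes. CA12 was higher by 3.59 ± 0.31 on the log2 scale, ADM by 2.57 ± 0.57, HK2 by 1.83 ± 0.14, ENO2 by 1.74 ± 0.50, PFKFB3 by 1.41 ± 0.20 and NDRG1 by 1.09 ± 0.17. Adjusted p ranged from 9.1e-07 for HK2 to 0.0287 for ENO2. Calls of CA12, HK2 and PFKFB3 were kept with each library left out, whereas ENO2 (404 and 543 in KO1, 124 and 158 in KO2) lost its call in 3 of the 4 cases. ADM lost it without KO1 replicate 2, at 2.23, and without KO2 replicate 2, at 2.22, and NDRG1 without KO1 replicate 1, at 0.98, and without KO2 replicate 2, at 0.88. The same 2 clones share the WT control, so their separate changes from WT are not independent.

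In the labelled KO2 rescue, 1 of 35 members was higher than in KO2 (2.86%, against 1.65% of all genes tested) and 2 were lower (5.71%, against 2.52%). CA12 was at 60.8 and 48.2 normalized counts where KO2 had 814 and 569, and fell by 3.63 on the log2 scale (SE 0.31, adjusted p = 1.8e-06). SLC2A1 was at 10656 and 12100 where KO2 had 5838 and 5338, and rose by 1.02 ± 0.08 (adjusted p = 7.3e-07), a call lost without KO2 replicate 2, at 0.96, and without replicate 2 of the labelled rescue, at 0.93. DDIT4 was at 21.6 and 1.73 where KO2 had 40.0 and 46.2. Its duplicates lay far apart, and the change of −2.49 (adjusted p = 0.0413) was −0.96 without replicate 2 of the labelled rescue, and was not called without either KO2 library or with a replicate block. The median change of the tested members was −0.41, and that of all genes 0.00. HIF1A (−0.61), PFKFB3 (−0.96), NDRG1 (−0.96) and P4HA1 (−0.88) had an adjusted p under 0.05 and missed the fold threshold.

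The rescue clones and the eGFP line were both grown in 10% serum. The rescue clones came from KO cells, as single colonies under blasticidin, and the eGFP line from WT cells under puromycin. These differences cannot be told apart from SETD2. SETD2 mRNA was at 2947 and 3128 normalized counts in eGFP and 9764 to 10445 in the rescue clones. Of 35 members, 10 were lower in the rescue clones (28.6%, against 6.66% of all genes tested) and 2 were higher (5.71%, against 6.47%). The median change was −0.51, and that of all genes 0.00. Of the 9 other HIF targets, BNIP3, BNIP3L, KDM3A, NDRG1 and P4HA1 fell and ANKRD37 rose. CA12 was at 8.15 and 9.96 normalized counts in Rescue1, 14.9 and 18.7 in Rescue2 and 255 and 256 in eGFP, and fell by 4.27 on the log2 scale (SE 0.27, adjusted p = 2.6e-08). The rescue libraries of CA12 lay within or below the range of WT in 2% serum.

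BNIP3 was at 1205 and 1269 normalized counts in Rescue1, 1398 and 1334 in Rescue2 and 4102 and 3639 in eGFP. BNIP3L was at 120 and 63.2, 19.3 and 163, and 735 and 540. P4HA1 was at 1726 and 1703, 1915 and 1876, and 5286 and 4957. In each of these genes all 4 rescue libraries were below both eGFP libraries, as they were in 23.1% of all genes tested. The log2 changes were −1.57 ± 0.07 for BNIP3, −3.15 ± 0.58 for BNIP3L and −1.51 ± 0.12 for P4HA1 (adjusted p = 5.4e-10, 0.00079 and 2.7e-07). KDM3A was at 361 and 508 in Rescue1, 582 and 204 in Rescue2 and 1790 and 1964 in eGFP. NDRG1 was at 664 and 799, 933 and 1243, and 1964 and 2177. KDM3A fell by 2.28 on the log2 scale (SE 0.41, adjusted p = 0.0006) and NDRG1 by 1.22 (SE 0.15, adjusted p = 1.7e-05), and both calls were kept with each library left out. ANKRD37 was at 27.6 and 13.1, 18.5 and 26.1, and 1.69 and 13.8, and its change of 1.77 ± 0.59 (adjusted p = 0.0345) was 0.54 without eGFP replicate 1. That call was also lost without Rescue1 replicate 1, at 1.51, and without Rescue2 replicate 2, at 1.65.

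Of the enzymes and regulators, TPI1 changed most between rescue and eGFP. It was at 23.8 and 27.6 normalized counts in Rescue1, 26.2 and 49.8 in Rescue2 and 1056 and 912 in eGFP, and fell by 4.97 on the log2 scale (SE 0.40, adjusted p = 3.3e-07), which is 31.2-fold lower. Pseudogene rows of TPI1 reached up to 64.2% of TPI1 plus its copies in the series. Whether the TPI1 row holds all reads of its gene was not tested, so the size of this fall is uncertain. PDK1 was at 337 and 312, 320 and 247, and 936 and 1055, and fell by 1.72 (SE 0.17, adjusted p = 3e-06). PFKP was at 99.7 and 495, 123 and 222, and 597 and 715, and PFKL at 46.5 and 127, 120 and 129, and 190 and 239. The Rescue1 duplicates of PFKP lay far apart. Its change of −1.76 ± 0.45 (adjusted p = 0.00773) lost its call without eGFP replicate 2, at −1.64. The change of PFKL, −1.12 ± 0.33 (adjusted p = 0.0189), lost it without Rescue1 replicate 1, at −0.76, and without either eGFP library, at −1.28 and −0.95. PGAM1 was at 121 and 171, 104 and 87.9, and 12.1 and 17.5, and rose by 2.92 ± 0.34 (adjusted p = 1.3e-05). The SOX2, OCT2 and PRRX1 lines held PGAM1 at 23.5 to 50.4, above eGFP and below the rescue libraries. PFKL was at 59.3 and 74.5 in the PRRX1 line, within the range of the rescue libraries, and at 132 to 172 in the SOX2 and OCT2 lines. The rescue clones were not tested against these lines. HIF1A, at 3050 and 3003, 3051 and 3918, and 4297 and 4919, had a change of −0.51 and was not called. SLC2A1 (0.66), HK2 (−0.60), PGK1 (−0.55) and ALDOA (−0.50) likewise had an adjusted p under 0.05 and were below the fold threshold. LDHA, LDHB, EGLN3 and EPAS1 were not called.

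**Figure D3:**
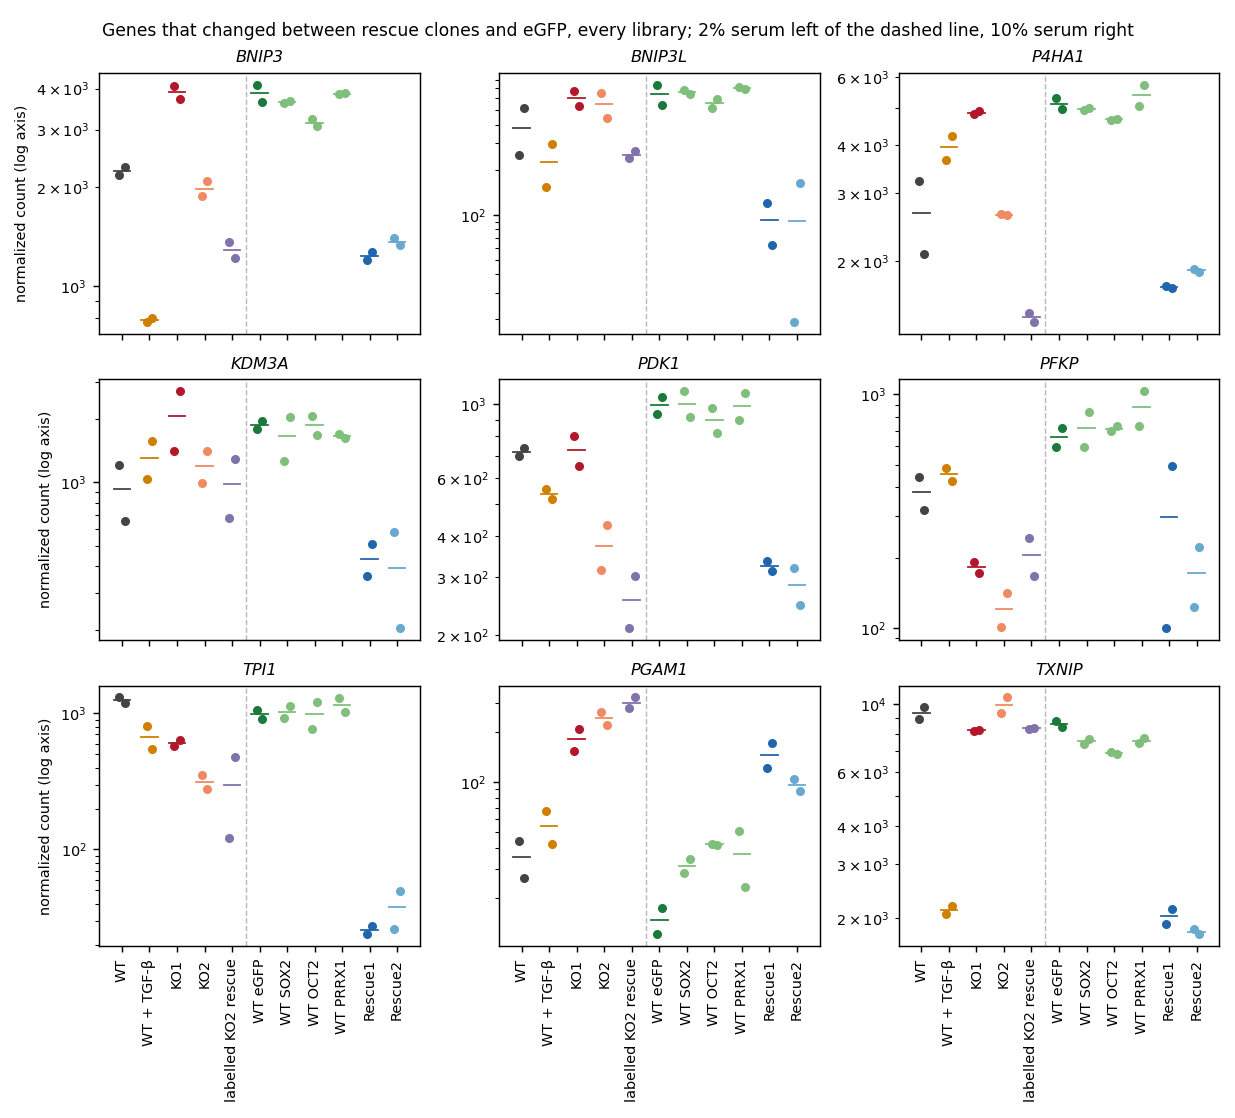
Normalized counts on a log axis of 8 members and of TXNIP in every library (dots) of the 11 groups, with a line at the mean of the 2 libraries. The 4 rescue libraries lie below both eGFP libraries in BNIP3, BNIP3L, P4HA1, KDM3A, PDK1, PFKP, TPI1 and TXNIP, and above them in PGAM1. Of all genes tested, 23.1% lie below and 22.7% above in this way.

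The change of KO2 from WT in 2% serum was then set against the change of the rescue clones from eGFP in 10% serum. The difference between these changes was higher for 11 members (31.4%, against 10.8% of all genes tested) and lower for 4 (11.4%, against 9.82%). The highest were CA12 at 9.86 ± 0.41, SLC2A3 at 3.88 ± 1.10, BNIP3L at 3.73 ± 0.89, ADM at 3.10 ± 0.76, DDIT4 at 3.01 ± 0.96, TPI1 at 2.97 ± 0.61 and KDM3A at 2.70 ± 0.62 on the log2 scale. The call of DDIT4 was lost in 6 of the 10 cases with a library left out, with values down to 2.27 (without WT replicate 1), and that of SLC2A3 without WT replicate 2, at 3.58, and without KO2 replicate 1, at 3.60. NDRG1 (1.74), P4HA1 (1.53), HIF1A (1.47) and BNIP3 (1.39) were also called. SLC2A1 (−1.95), HK2 (−1.34), PFKM (−1.33) and ENO1 (−1.03) were called lower, and ENO1 lost its call without WT replicate 2, at −0.89, and without eGFP replicate 1, at −0.97. TPI1 fell in both changes, and its positive difference comes from the larger fall in the rescue clones. BNIP3, BNIP3L, KDM3A, NDRG1 and P4HA1 were not called in KO2 against WT. Their changes in the rescue clones against eGFP were −1.57, −3.15, −2.28, −1.22 and −1.51, which make most of their differences. BNIP3 averaged 1983 normalized counts in KO2 and 2245 in WT, and P4HA1 2645 and 2662. CA12, ADM and DDIT4 were called higher in KO2, and HIF1A and SLC2A3 were called in neither change. The 2 changes use different controls, and the serum and the transduction of those controls cannot be told apart in their difference.

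Rescue clones were also compared with KO2 directly. Serum, transduction, blasticidin selection and a further cloning differ between these groups and cannot be told apart from SETD2. The clone from which each rescue line was made is not given, so KO2 may not be the parent. A difference between KO clones then cannot be told apart either. CA12, HK2 and NDRG1 were higher in KO1 than in KO2, by 3.59, 1.83 and 1.09 on the log2 scale. Here 2 members were higher (5.71%, against 7.84% of all genes tested) and 7 were lower (20.0%, against 9.65%). CA12 fell by 5.68 on the log2 scale, TPI1 by 3.31, BNIP3L by 2.91, NDRG1 by 1.81, EGLN3 by 1.73, KDM3A by 1.62 and PGAM1 by 1.03. EGLN3 was at 59.1 and 47.4 normalized counts in Rescue1, 66.2 and 98.6 in Rescue2 and 193 and 249 in KO2. HK2 rose by 1.52 ± 0.13, from 180 and 190 to 554 and 596 in Rescue1 and 521 and 469 in Rescue2. ADM rose by 1.43 ± 0.50 (adjusted p = 0.0379), a call lost without either KO2 library, without Rescue1 replicate 1 and without Rescue2 replicate 2, with values of 1.08 to 1.77. The PGAM1 call was lost in the same 4 cases, with values of −1.16 to −0.89, and that of KDM3A without KO2 replicate 2, at −1.37. With equal library totals, 3 members were higher and 6 lower, and the median of all genes moved to 0.26. These counts were not set against the shares of all genes under that scaling.

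TGF-β raised 3 members (8.57%, against 3.58% of all genes tested) and lowered 3 (8.57%, against 4.26%). The median change of the tested members was −0.14. PFKFB4 was at 230 and 211 normalized counts with TGF-β where WT had 89.8 and 31.9, and rose by 2.01 ± 0.40 on the log2 scale (adjusted p = 0.00233). P4HA2, at 8076 and 8514 where WT had 4061 and 2425, rose by 1.40 ± 0.15 (adjusted p = 1.6e-05). CA12, at 40.0 and 59.6 where WT had 18.9 and 9.06, rose by 1.82 ± 0.31 (adjusted p = 0.00081), to a level far below that of the KO clones. BNIP3 was at 778 and 802, NDRG1 at 647 and 643 and ENO1 at 34713 and 33870. They fell by 1.51, 1.75 and 1.01, with adjusted p of 1.7e-08, 5.4e-06 and 6.2e-07. NDRG1 was therefore lower with TGF-β and higher in KO1 than in the same WT libraries, and PFKFB4, P4HA2 and CA12 were higher in both. The ENO1 change was −0.87 without WT replicate 2 and lost its call there and without replicate 2 of TGF-β. LDHB, at 6593 and 7174, had a change of −0.97, just short of the fold threshold, and HIF1A, at 2377 and 2498, one of −0.06. With equal library totals, the median of all genes moved to −0.20 and 5 members were lower and 3 higher, counts not set against the shares of all genes under that scaling.

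The eGFP line differed from WT in transduction, puromycin selection and serum, which cannot be told apart. Of 35 members 3 were higher (8.57%, against 6.49% of all genes tested) and 5 were lower (14.3%, against 6.24%). CA12 was higher by 4.18 ± 0.31 on the log2 scale, ADM by 4.53 ± 0.57 and DDIT4 by 2.98 ± 0.72. These are 3 of the 5 members that rose in both KO clones, and the WT libraries in 2% serum are the control in both cases. ADM was at 171 and 392 normalized counts in eGFP, a range that overlaps KO1, and CA12 at 255 and 256, below KO2. SLC2A1 was at 4051 and 4264 and was lower by 1.72 (SE 0.08, adjusted p = 1.5e-09). The DDIT4 change was 2.23 and not called without WT replicate 1. EGLN3, GAPDH, ANKRD37 and PGAM1 were also called lower, by 1.59, 2.84, 2.00 and 1.17. Each of these 4 calls was lost on leaving out some library, EGLN3 without eGFP replicate 2 (−1.06), GAPDH without WT replicate 1 (−1.57) or eGFP replicate 1 (−2.30), ANKRD37 without eGFP replicate 1 (−0.77) or either WT library, and PGAM1 without WT replicate 1 (−0.82) or eGFP replicate 1 (−0.92).

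No member was called by limma between the SOX2, OCT2 or PRRX1 line and eGFP, or between Rescue1 and Rescue2. Of all genes tested, 0.0206%, 0.0343% and 0.0411% were called in the 3 lines and 0.994% between the rescue clones. At an unadjusted p under 0.05, 4, 3 and 2 of the 35 members passed in the SOX2, OCT2 and PRRX1 lines and 4 between the rescue clones, where 6.76%, 7.03%, 4.61% and 10.5% of all genes did. The highest CA12 level in these lines was 243, against 255 and 256 in eGFP.

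Shares of each step that has several isozymes were computed from normalized counts per kb of transcript, as a description. HK2 made 11.96 to 14.2% of the hexokinase level in WT, 14.3 to 14.7% in eGFP, 6.26 to 9.37% in KO1 and 3.23 to 3.53% in KO2, and HK1 the rest. In the phosphofructokinases, PFKP made 39.8 to 40.5% in eGFP, 21.1 to 28.6% in WT, 11.5 to 15.5% in KO1 and 12.4 to 17.6% in KO2. PFKL made 8.58 to 9.46% in WT, 21.0 to 27.7% in KO1 and 16.0 to 20.3% in KO2. LDHA made 30.0 and 59.7% of lactate dehydrogenase in the 2 WT libraries, so the shares of 51.6 to 56.2% in KO2 lie within the spread of WT. P4HA2 made 41.1 to 43.1% of the pair in WT, 50.4 to 61.8% in the 8 libraries of TGF-β, KO1, KO2 and the labelled KO2 rescue, 44.02 to 48.3% in the rescue clones and 24.8 to 27.7% in eGFP. HIF1A exceeded EPAS1 in all libraries, and EPAS1 made at most 3.26% of the alpha subunits.

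**Figure D4:**
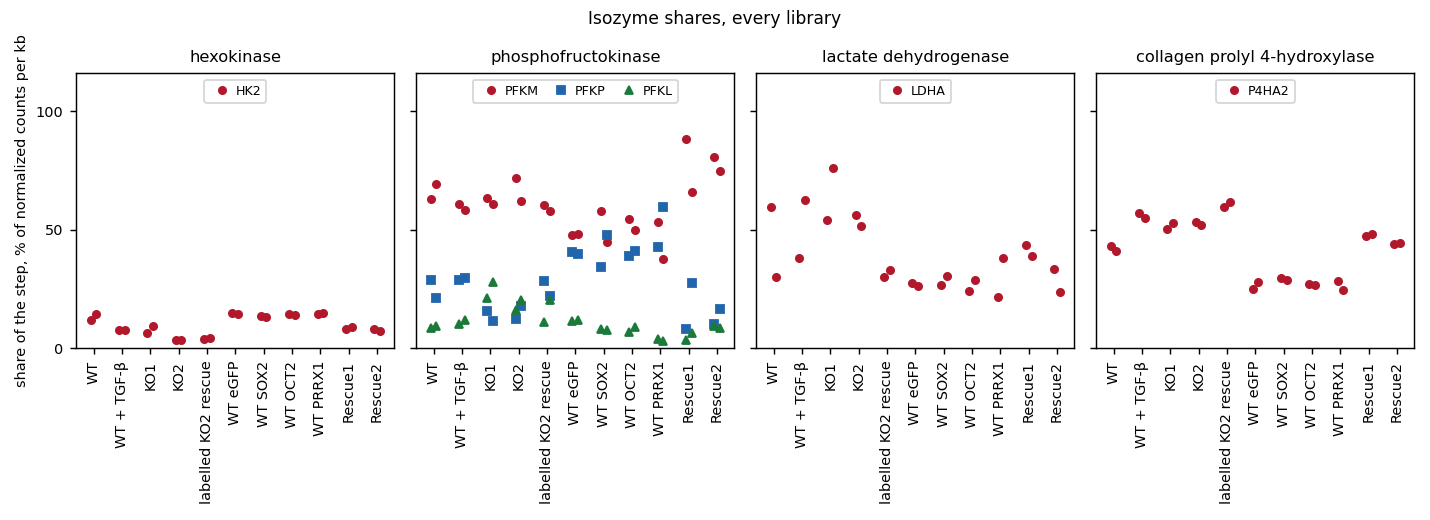
Share of each step held by an isozyme (percent of normalized counts per kb of transcript) in every library of the 11 groups. The HK2 share is lowest in KO2 and the labelled KO2 rescue, and LDHA shares of the 2 WT libraries are far apart, at 59.7 and 30.0%.

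Summed over the 17 glycolytic enzymes, the level was 146205 and 130893 normalized counts in WT (1.12 and 1.08% of the library), 112985 and 134001 in KO1 (0.679 and 0.80%), 105754 and 101495 in KO2 (0.712 and 0.697%) and 71742 and 86699 with TGF-β (0.486 and 0.583%). The libraries in 10% serum lay between 93551 and 106419. KO2 and TGF-β were below both WT libraries, and 1 KO1 library lay within their range. ENO1 alone made 29.1 to 58.4% of the sum, so it weighs the few most abundant rows. Without ENO1 the sum was 83599 and 54424 in WT, 69466 and 95053 in KO1, 67007 and 64046 in KO2 and 37029 and 52828 with TGF-β, so KO2 lay within the WT range, 1 KO1 library above it and TGF-β still below it. That WT range rests largely on LDHA and GAPDH, which varied between duplicates. LDHA made 23.7 and 7.48% of the full sum in WT and 17.6 and 35.8% in KO1, and GAPDH was at 8414 and 1441 in WT.

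Other genes of the pathway were taken from 7 further lists. In the list of pyruvate and lactate handling, 16 genes were tested, of which 4 rose (25.0%, against 12.0% of all genes) and 2 fell (12.5%, against 13.1%) in KO1. In KO2, 3 rose (18.8%, against 9.02%) and 1 fell (6.25%, against 7.29%). SLC16A1, the lactate and pyruvate transporter MCT1, was at 2431 and 2244 normalized counts in WT, 10807 and 11386 in KO1 and 12288 and 12468 in KO2. Its duplicates stood close to each other and both clones were far above WT, with log2 changes of 2.25 ± 0.06 and 2.41 ± 0.06 (adjusted p = 3.6e-13 and 3.3e-13). It was at 5662 and 5245 in the labelled KO2 rescue and 3870 to 3933 in the rescue clones. In eGFP, in the same serum as the rescue clones, it was at 5683 and 5660, and was called higher than WT by 1.28 ± 0.06 (adjusted p = 7.6e-10). MPC2, a subunit of the mitochondrial pyruvate carrier, fell by 1.82 and 1.60 on the log2 scale, from 2109 and 2449 in WT to 761 and 542 in KO1 and 750 and 753 in KO2. Its partner MPC1 was low, at 5.30 and 0 in WT, 20.6 and 17.5 in KO1 and 38.98 and 15.2 in KO2, and was called higher. PDK4, another kinase of pyruvate dehydrogenase, was at 0 and 2.04 in WT, 7.74 and 39.8 in KO1 and 21.2 and 12.2 in KO2.

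Of 32 other hypoxia targets tested, 10 rose (31.2%, against 12.0% of all genes) and 2 fell (6.25%, against 13.1%) in KO1. In KO2, 3 rose (9.38%, against 9.02%) and 4 fell (12.5%, against 7.29%). STC2, a secreted glycoprotein, was at 1103 and 1873 normalized counts in WT, 31546 and 32604 in KO1 and 4652 and 4111 in KO2. LOX, which crosslinks collagen, and RRAGD, a GTPase of the mTORC1 pathway, also rose in both clones, by 1.66 and 1.70 and by 3.63 and 3.34 on the log2 scale. In the rescue clones against eGFP, 9 of the 32 fell (28.1%, against 6.66% of all genes) and 1 rose (3.12%, against 6.47%). Those that fell were BHLHE40, CCNG2, ERO1A, FAM162A, MXI1, PPFIA4, STC1, VEGFA and WSB1, with VEGFA at 3348 to 4096 in the rescue clones and 7700 and 7837 in eGFP.

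For the smaller lists that follow, the shares of all genes tested were 12.0% higher and 13.1% lower in KO1. In KO2 they were 9.02% and 7.29%. Of 11 HIF regulators tested, 0 were called in KO1, and CREBBP, a coactivator, rose in KO2. VHL was at 1130 and 779 normalized counts in WT and 1273 to 1502 in the KO libraries, with log2 changes of 0.58 and 0.49 that missed the fold threshold. In the list of other glycolysis genes, 12 were tested, of which 3 rose and 3 fell in KO1 (25.0% each way) and 2 rose in KO2 (16.7%). ENO3, the muscle enolase, rose in both clones by 1.07 and 2.03. Of 4 glucose-sensing genes, MYC, a transcription factor that drives many glycolytic genes, fell in both clones, from 1058 and 1149 in WT to 165 and 206 in KO1 and 92.6 and 92.2 in KO2. TXNIP, which restrains glucose uptake, fell with TGF-β by 2.13 and in the rescue clones against eGFP by 2.17 and was not called in the KO clones. None of 3 gluconeogenesis genes and 6 pentose phosphate genes tested was called in KO1 or KO2. FBP1, the gluconeogenic phosphatase, was at 1.93 normalized counts or less in all 22 libraries.

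The rows of the members differ in how firmly they can be read. On the log2(count + 1) scale, duplicates stayed within 2-fold in all groups for 18 of the 35 tested members (51.4%, against 46.0% of all genes tested), among them CA12, HIF1A, HK2, SLC2A1, PFKFB3, NDRG1, BNIP3, P4HA1, P4HA2, PDK1, PGK1, ENO1 and LDHB. On that scale WT duplicates differed by over 2-fold for 6. GAPDH, at 8414 and 1441 in WT and 247 to 8414 in the series, and LDHA, at 6369 to 47956, are abundant and yet varied between duplicates. Levels per kb also ran far apart between enzymes of 1 pathway, in eGFP from 8.23 normalized counts per kb for PGAM1 and 404 for GAPDH to 25946 for ENO1. Rows of pseudogenes named after the members did not hold many reads, at most 28.3 normalized counts summed over 65 rows for GAPDH and 74.8 over 14 rows for PGAM1 and PGAM4. Relative to low rows they were not small, up to 64.2% of TPI1 plus its copies, 57.8% for PGAM1 and 58.2% for SLC2A3 plus SLC2A14, so values of these genes are uncertain where they are low. Whether each row holds all reads of its gene was not tested.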

How the data were processed

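RNA-seq of RPTEC (2 libraries in each of 11 groups, from the labels) was used. The authors prepared stranded mRNA libraries, quantified reads with Salmon 1.9.0 against Ensembl release 94 of GRCh38 and used DESeq2 1.26.0. The deposited log2 values cover 36859 genes in 22 libraries and share a floor of 11.32, and the normalization and the transformation behind them are not given in the sources used here. They were taken for variance-stabilized values and inverted from that floor to normalized counts, of 11674491 to 16758645 in total per library, which sets the precision of low genes. Reads per library were approximated from the step between low values.

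Symbols and lengths came from GENCODE release 44. Log2(normalized count + 1) was fitted for 14585 genes that reached 10 normalized counts in 2 or more libraries, with limma 3.58.1 in R 4.3.3 (moderated test with a variance trend, 1 mean per group, all 22 libraries). Benjamini-Hochberg adjustment was over all genes of a comparison, and 13 comparisons were made. Calls required an adjusted p under 0.05 and a log2 change beyond 1 in either direction. Single genes are given in every library if called in a KO, TGF-β or rescue comparison, or if among 10 others listed by name. In other lists up to 4 genes are named, those with the largest mean change among genes called the same way in both KO clones, and VHL, VEGFA, TXNIP, CREBBP, FBP1 and names in counts were added after their values were seen. Some genes that the rule or the marker list names are not reported here. The members and lists were chosen with earlier results of these data known. The fit was tested on simulated data. Python 3.11.15, pandas 2.3.3 and matplotlib 3.10.9 were used for tables and plots. Alternatives were other pseudocounts, filters, scalings, samples in the fit, a replicate block and each library left out.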

Additional observations from a re-analysis of the deposited data

Results flagged for a closer look

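The change from WT differed between the 2 KO clones, made with the same guide, for 6 members, by the test of KO1 against KO2 itself. The log2 change from WT was larger in KO1 than in KO2 by 3.59 for CA12, 2.57 for ADM, 1.83 for HK2, 1.74 for ENO2, 1.41 for PFKFB3 and 1.09 for NDRG1. For HK2 and ENO2 the change from WT was negative in KO2, and for the other 4 it was positive in both clones. With equal library totals the NDRG1 difference was no longer called. Groups of 2 libraries were too small to look for single libraries that stand apart within a group.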

How the results depend on the processing

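Of 78 calls of a member in a comparison, 53 were kept with each library left out in turn, and 3 in every other setting. Of 1143 recomputed values of these calls, 179 lost the call and 0 changed direction. Counts of called members were within 1.5 times of those reported in 165 of 179 recomputed cases. The other cases came from 2 settings and from leaving out Rescue2 replicate 2 or eGFP replicate 1. On the deposited log2 values, whose high floor compresses differences so that few pass the fold threshold, the counts were 0 for TGF-β, KO2 against WT, the labelled KO2 rescue, rescue clones against eGFP and rescue clones against KO2, 1 for KO1 against WT, KO1 against KO2 and the difference of changes, and 2 for eGFP against WT. Without the fold threshold, 70 of the 78 calls had the same direction and an adjusted p under 0.05 on those values, an alternative chosen after seeing the data. With the fit restricted to the libraries compared, which leaves few residual degrees of freedom, the counts were 0 for TGF-β and for KO1 against KO2 and 3 for eGFP against WT. As libraries were left out, with the lone library of an arm assumed to vary like the others, counts ran from 0 to 1 between Rescue1 and Rescue2 and from 5 to 9 for eGFP against WT. Replicate numbers did not pair the samples: over 55 pairs of groups the correlation of deviations was −0.14 to 0.10. With the replicate block 76 of the 78 calls were kept, and the counts were 6 for TGF-β, 10 for KO1 and 9 for KO2 against WT and 12 for rescue clones against eGFP. Reads limit members under about 10 normalized counts, such as CA9.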
